A study of Mus musculus with 6 samples.

Results

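The genes of the major histocompatibility complex (MHC) class I and class II pathways were followed across vitamin E-treated ApoE-/- aortas, untreated ApoE-/- aortas and aortas of B6 control mice. Members were the probe sets whose annotated mouse symbol starts with H2- or is B2m, Tap1, Tap2, Tapbp, Cd74, Ciita or Nlrc5. A probe set with several symbols was kept only if all of them were H2- genes, which left out 3 probe sets. Of the 45101 probe sets of the array, 72 were members, and they carry 41 symbols. Class I comprised 46 probe sets and class II 25, and 1 further probe set measures H2-Ke6, a neighbour in the H2 region that encodes no MHC chain. The label fits these symbols, but 24 members, 19 of class I and 5 of class II, had a mean signal intensity under 100 in every group and were not tested.

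Gene expression was measured with Affymetrix MG430 2.0 arrays, 2 for each group, and each array was hybridised with pooled RNA of 3 aortas. Vitamin E-treated ApoE-/- mice had received tocopherol acetate in the diet at 2000 IU per kg for 7 months from an age of 4 to 6 weeks, untreated ApoE-/- mice had the same chow without it, and B6 mice were non-transgenic C57BL/6J animals. ApoE-/- mice lack apolipoprotein E in all tissues on the same C57BL/6J background, and aortas were taken at 32 to 34 weeks of age from mice on chow with 7% fat and 0.15% cholesterol. The comparisons ask how the hyperlipidaemic aorta differs from that of B6 mice and whether vitamin E, an antioxidant, moves it. A p-value here measures the spread between arrays of pooled RNA, and precision is limited by having 2 arrays a group.

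Class I molecules sit on almost all nucleated cells and consist of a polymorphic heavy chain, encoded in mice by H2-K1 and H2-D1 among others, and the light chain beta-2 microglobulin (B2m). Cytosolic peptides reach them through the transporter Tap1/Tap2 and the bridging protein tapasin (Tapbp), and they are shown to CD8 T cells. Class II molecules are paired alpha and beta chains of B cells, dendritic cells, macrophages and thymic epithelium, which show peptides of endocytosed proteins to CD4 T cells. The invariant chain Cd74 guards their groove, H2-DM exchanges its remnant for peptide, and H2-O holds H2-DM back. Ciita is the master transcriptional activator of class II genes and Nlrc5 its counterpart for class I genes. Both act through conserved promoter boxes bound by the factors RFX (X box) and NF-Y (Y box).

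The targeted gene Apoe had signal intensities of 40.5 and 45.3 in vitamin E-treated ApoE-/- aortas, 93.2 and 57.4 in untreated ApoE-/- aortas, and 5209 and 5432 in B6 aortas. Mean signal intensity of an array ranged from 305 to 319, and 35.8 to 37.3% of probe sets reached 100. The 3'/5' signal ratio of Gapdh, a sign of RNA quality, was 1.15 and 1.24 in vitamin E-treated ApoE-/-, 1.03 and 1.06 in untreated ApoE-/-, and 1.35 and 1.34 in B6 aortas. Its part in the results below was not tested. The sources used here do not say whether the arrays of vitamin E-treated aortas were hybridised together with the other 4, so hybridisation and treatment cannot be told apart. C57BL/6J mice carry the b haplotype of the H2 region, which has no functional H2-Ea gene and no H2-L gene. The 3 probe sets of H2-Ea, the alpha chain of the E molecule, were between 1.16 and 36.0 on all 6 arrays, and no member carried the symbol H2-L.

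Class II probe sets were higher in untreated ApoE-/- aortas than in those of B6 mice almost throughout. Of 20 tested, 17 were called higher and 0 lower with limma (adjusted p under 0.05, Benjamini-Hochberg method over 17909 probe sets), and 3 were not called. At an unadjusted p under 0.05, limma gave 19 higher and 0 lower. Among all probe sets tested, 21.7% were called higher and 19.1% lower. The median log2 fold change was 0.58 over the class II probe sets, beside 0.029 over all probe sets tested. A probe set that passes the minimum of 100 only through a group where it is high is selected in part for differing. Of the 18 class II probe sets with a mean of at least 100 in all 3 groups, 16 were called higher. In bulk RNA of aortas, more cells of a type and more RNA per cell cannot be told apart.

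**Figure D1:**
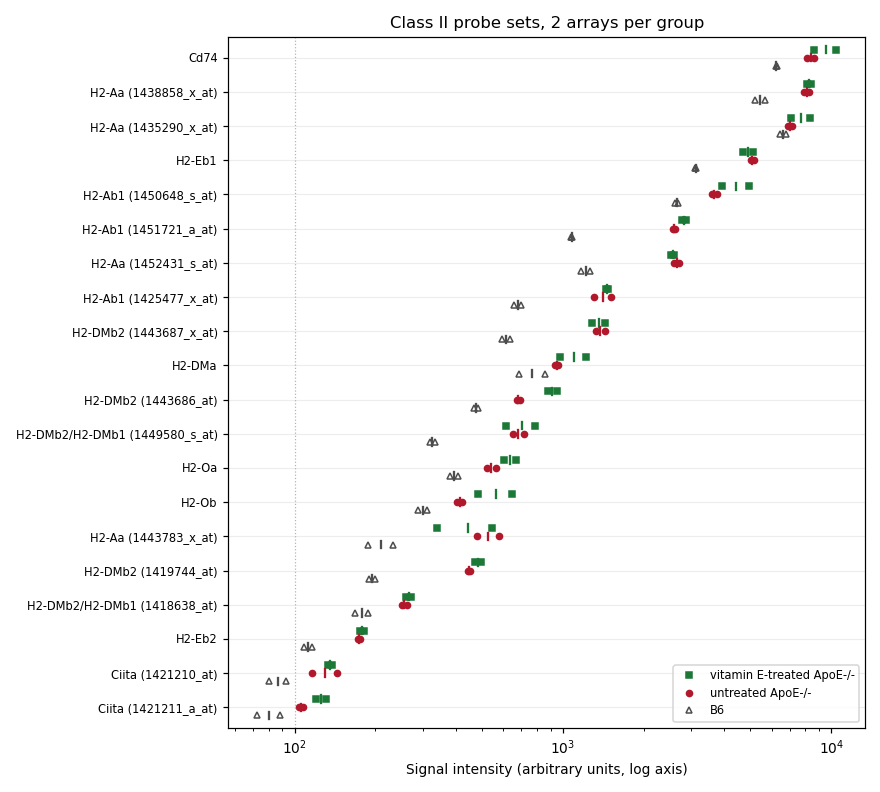
Signal intensity (log axis, arbitrary units) of the 20 class II probe sets tested, with 2 arrays per group as points and the group mean as a short line, and the dotted line at 100. The triangles of B6 aortas lie left of the points of ApoE-/- aortas in every row, most narrowly for the H2-Aa probe set 1435290_x_at, while vitamin E-treated and untreated ApoE-/- aortas mostly lie close together.

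Of the classical class II chains, H2-Aa, the alpha chain of the A molecule, had 8431 and 8165 signal units in vitamin E-treated ApoE-/- aortas, 7947 and 8255 in untreated ApoE-/- aortas, and 5676 and 5217 in B6 aortas with its brightest probe set. The arrays of untreated ApoE-/- aortas were above those of B6 aortas, with no overlap, and differed by a log2 fold change of 0.57 (SE 0.07, adjusted p = 0.000933 from limma). H2-Ab1, its beta chain, had 2784 and 2883 in vitamin E-treated ApoE-/-, 2581 and 2614 in untreated ApoE-/-, and 1076 and 1081 in B6 aortas with probe set 1451721_a_at. This rise had the smallest adjusted p of the class, 2.41-fold in untreated ApoE-/- over B6 aortas (log2 fold change 1.27, SE 0.06, adjusted p = 8.86e-06 from limma). The brightest probe set of H2-Ab1, 1450648_s_at, gave 3925 and 4951, 3749 and 3590, and 2681 and 2626 signal units in vitamin E-treated ApoE-/-, untreated ApoE-/- and B6 aortas, a log2 fold change of 0.47 between untreated ApoE-/- and B6 aortas (adjusted p = 0.0109 from limma). That call was lost when either array of untreated ApoE-/- or of B6 aortas was left out, and that of 1451721_a_at was not lost in any of the 6 such fits.

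H2-Eb1 encodes the beta chain of the E molecule, whose alpha chain is missing in these mice. Its signal intensity was 4704 and 5129 in vitamin E-treated ApoE-/-, 5022 and 5155 in untreated ApoE-/-, and 3115 and 3137 in B6 aortas. Untreated ApoE-/- aortas were 1.63-fold higher than B6 aortas (log2 fold change 0.70, SE 0.07, adjusted p = 0.000254 from limma), and the call held in all 6 fits that left out 1 array. H2-Eb2, a second beta chain gene of low signal, had 175 and 181 in vitamin E-treated ApoE-/-, 176 and 172 in untreated ApoE-/-, and 109 and 116 in B6 aortas. Its log2 fold change of 0.63 in untreated ApoE-/- over B6 aortas was called as well. Of the 9 classical class II probe sets tested, 8 were called higher in this comparison, and the exception was H2-Aa probe set 1435290_x_at (log2 fold change 0.09, adjusted p = 0.479 from limma).

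The invariant chain and the chains of peptide exchange shifted by smaller or similar amounts. Cd74, the chaperone that fills the class II groove, had 8663 and 10446 in vitamin E-treated ApoE-/-, 8146 and 8620 in untreated ApoE-/-, and 6265 and 6243 in B6 aortas. The groups of untreated ApoE-/- and B6 aortas did not overlap, and the difference was 1.34-fold (log2 fold change 0.42, SE 0.10, adjusted p = 0.0121 from limma). H2-DMb2, a beta chain of the exchange factor H2-DM, had 1439 and 1283, 1326 and 1436, and 594 and 636 signal units in vitamin E-treated ApoE-/-, untreated ApoE-/- and B6 aortas with its brightest probe set. It was 2.25-fold higher in untreated ApoE-/- aortas than in those of B6 mice (log2 fold change 1.17, adjusted p = 6.21e-05 from limma), and all 5 probe sets of H2-DMb2, or of H2-DMb2 and H2-DMb1 together, were called. H2-DMa, the alpha chain of H2-DM, had 974 and 1224 in vitamin E-treated ApoE-/-, 961 and 937 in untreated ApoE-/-, and 855 and 684 in B6 aortas. Its difference between untreated ApoE-/- and B6 aortas was not called (log2 fold change 0.31, SE 0.13, adjusted p = 0.0994 from limma), although the arrays did not overlap.

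H2-O is made mainly by B cells and thymic epithelium. Its alpha chain H2-Oa had 605 and 667 in vitamin E-treated ApoE-/-, 521 and 561 in untreated ApoE-/-, and 379 and 408 in B6 aortas. Its beta chain H2-Ob had 645 and 483 in vitamin E-treated ApoE-/-, 420 and 404 in untreated ApoE-/-, and 288 and 313 in B6 aortas. Both chains stepped down across the groups in that order, without overlap between any of them. The log2 fold changes of untreated ApoE-/- over B6 aortas were nearly equal, 0.46 for H2-Oa (SE 0.09, adjusted p = 0.0051 from limma) and 0.46 for H2-Ob (SE 0.14, adjusted p = 0.0308 from limma). Ciita had 134 and 138 in vitamin E-treated ApoE-/-, 116 and 144 in untreated ApoE-/-, and 80.6 and 92.9 in B6 aortas, close to the minimum signal. It was 1.5-fold higher in untreated ApoE-/- aortas than in those of B6 mice (log2 fold change 0.58, SE 0.16, adjusted p = 0.0261 from limma), and a second probe set was not called (log2 fold change 0.40, adjusted p = 0.0855 from limma).

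Of the 17 class II calls in untreated ApoE-/- against B6 aortas, 12 held in all 6 fits that left out 1 array. The calls of Cd74 and H2-Ob were lost without either array of untreated ApoE-/- or of B6 aortas. That of Ciita was lost without replicate 2 of untreated ApoE-/- aortas or without either B6 array, and that of H2-DMb2/H2-DMb1 probe set 1418638_at without replicate 1 of B6 aortas. The fifth lost call was that of H2-Ab1 probe set 1450648_s_at, given above.

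Promoters are shown for members that differed together and for H2-Q10, which differed the other way, because the class II and class I activators act there. Sequences are those of RefSeq on assembly GRCm38.p6, the 150 bases before the annotated start, read 5' to 3' on the gene's strand. Capitals mark the Y box letters CTGATTGG, their core ATTGG, and an X box pattern CCNAGNNAC, each on either strand. The core is part of the Y box letters, so that every Y box match is also a core match.
H2-Aa (chr17:34287824-34287973, minus strand): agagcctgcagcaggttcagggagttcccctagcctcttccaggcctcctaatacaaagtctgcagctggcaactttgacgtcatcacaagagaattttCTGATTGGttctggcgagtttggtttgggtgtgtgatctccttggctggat
H2-Eb1 (chr17:34305717-34305866, plus strand): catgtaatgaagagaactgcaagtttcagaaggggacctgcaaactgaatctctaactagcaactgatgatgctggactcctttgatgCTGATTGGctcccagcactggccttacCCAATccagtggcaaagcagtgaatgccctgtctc
H2-Oa (chr17:34092229-34092378, plus strand): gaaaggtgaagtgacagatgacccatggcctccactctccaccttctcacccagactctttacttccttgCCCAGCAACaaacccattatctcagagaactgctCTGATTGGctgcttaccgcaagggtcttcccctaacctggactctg
H2-Ob (chr17:34238755-34238904, plus strand): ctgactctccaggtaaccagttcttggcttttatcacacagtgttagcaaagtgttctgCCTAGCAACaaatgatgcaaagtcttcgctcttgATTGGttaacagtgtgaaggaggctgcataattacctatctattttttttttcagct
H2-D1 (chr17:35262944-35263093, plus strand): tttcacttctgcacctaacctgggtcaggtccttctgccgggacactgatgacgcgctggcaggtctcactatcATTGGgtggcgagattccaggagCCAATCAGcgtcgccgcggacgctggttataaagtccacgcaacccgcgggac
H2-Q7 (chr17:35439005-35439154, plus strand): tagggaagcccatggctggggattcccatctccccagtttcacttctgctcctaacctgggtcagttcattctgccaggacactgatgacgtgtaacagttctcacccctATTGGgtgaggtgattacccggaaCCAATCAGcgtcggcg
H2-Q10 (chr17:35469939-35470088, plus strand): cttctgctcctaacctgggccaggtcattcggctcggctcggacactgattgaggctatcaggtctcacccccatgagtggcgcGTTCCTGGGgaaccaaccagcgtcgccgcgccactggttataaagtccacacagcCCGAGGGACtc

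Windows of 300 bases, from 250 before to 50 after the start, were found for 8 of 12 class II symbols (9 windows) and 17 of 28 class I symbols (19 windows). The core ATTGG was in 8 of the 9 class II windows and 17 of the 19 class I windows, and in 37.4% of all 32851 promoter windows. The full letters CTGATTGG were in 4 class II and 11 class I windows, and in 4.1% of all. The X box pattern was in 5 class II and 5 class I windows, and in 17.3% of all. In H2-Oa the X box match lay at bases -80 to -72 and the Y box match at -46 to -39 from the start, with its core at -43 to -39. In H2-Ob the X box match lay at -91 to -83 and the core match at -57 to -53, in the same orientation. From X box to core the spacing was similar in these genes but not equal. H2-D1 and H2-Q7 carried the Y box letters on the opposite strand, and H2-Q10 had no core match in its window. Members of 1 family share sequence, so these windows are not independent, and a match or its absence is a description of letters only.

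Class I probe sets were also higher in untreated ApoE-/- aortas than in those of B6 mice, but less uniformly. Of 27 tested, 16 were called higher, 1 lower and 10 not, beside the 21.7% higher and 19.1% lower among all probe sets tested. The median log2 fold change was 0.50. Of the 24 with a mean of at least 100 in all 3 groups, 14 were called higher and 1 lower. The 11 class I probe sets that averaged at least 2000 over the arrays had a median of 0.18 with 3 called higher. The 16 dimmer ones had a median of 0.66 with 13 called higher and 1 lower. Signal intensity depends on the probes as well as on the RNA, so this split does not rank genes by their level. In class II the medians were close, with values of 0.57 over 7 bright and 0.58 over 13 dimmer probe sets.

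**Figure D2:**
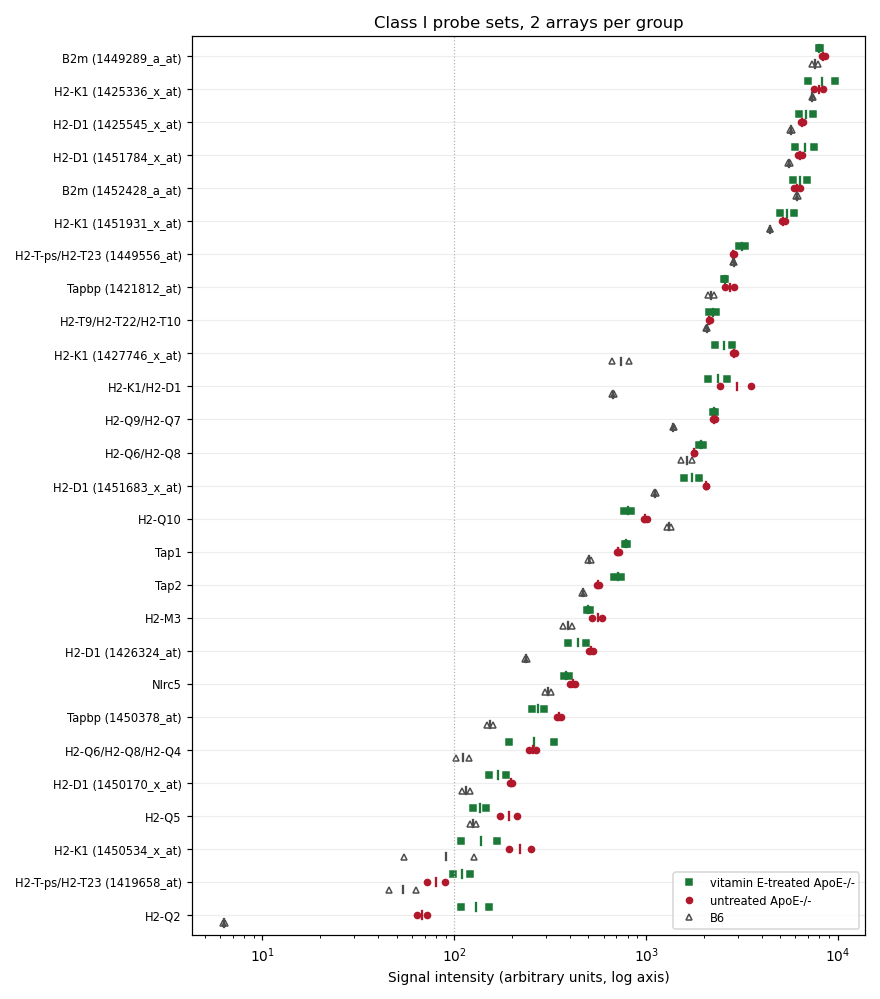
Signal intensity (log axis, arbitrary units) of the 27 class I probe sets tested, with 2 arrays per group as points, the group mean as a short line and the dotted line at 100. The brightest rows, B2m and the leading probe sets of H2-K1 and H2-D1, have the 3 groups close together, whereas the B6 triangles stand apart for most K1 and D1 probe sets of lower signal and for H2-Q2. In the row of H2-K1 probe set 1450534_x_at, B6 and vitamin E-treated ApoE-/- aortas overlap.

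The brightest probe sets of B2m, H2-K1 and H2-D1 showed small differences that were not called between untreated ApoE-/- and B6 aortas. B2m, the light chain, had 8045 and 7932 in vitamin E-treated ApoE-/-, 8260 and 8530 in untreated ApoE-/-, and 7276 and 7905 in B6 aortas (log2 fold change of untreated ApoE-/- over B6 0.15, SE 0.07, adjusted p = 0.15 from limma). H2-K1, a classical heavy chain, had 7006 and 9595 in vitamin E-treated ApoE-/-, 7535 and 8334 in untreated ApoE-/-, and 7377 and 7295 in B6 aortas. The log2 fold change of untreated ApoE-/- over B6 aortas was 0.11 (SE 0.14, adjusted p = 0.552 from limma). The arrays of vitamin E-treated ApoE-/- aortas enclosed those of both other groups. H2-D1, the other classical heavy chain, had 6284 and 7386 in vitamin E-treated ApoE-/-, 6410 and 6556 in untreated ApoE-/-, and 5627 and 5765 in B6 aortas. ApoE-/- arrays lay above B6 arrays, but the difference between untreated ApoE-/- and B6 aortas was not called (log2 fold change 0.19, SE 0.09, adjusted p = 0.128 from limma).

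Other probe sets of the same heavy chain genes gave much larger differences. H2-K1 probe set 1427746_x_at had 2815 and 2287 in vitamin E-treated ApoE-/-, 2846 and 2920 in untreated ApoE-/-, and 668 and 811 in B6 aortas. This signal was 3.92-fold higher in untreated ApoE-/- aortas than in those of B6 mice (log2 fold change 1.97, SE 0.12, adjusted p = 3.29e-05 from limma). A dim probe set of H2-K1, 1450534_x_at, had 168 and 108 in vitamin E-treated ApoE-/-, 193 and 250 in untreated ApoE-/-, and 54.5 and 127 in B6 aortas. Its 2.64-fold difference between untreated ApoE-/- and B6 aortas was called (log2 fold change 1.40, SE 0.39, adjusted p = 0.0243 from limma), but not without either untreated ApoE-/- array or without replicate 1 of B6 aortas. A probe set shared by H2-K1 and H2-D1, 1424948_x_at, had 2623 and 2112, 2421 and 3505, and 661 and 682 in vitamin E-treated ApoE-/-, untreated ApoE-/- and B6 aortas. Its 4.34-fold difference between untreated ApoE-/- and B6 aortas was the largest among members with both groups above the floor of 20 (log2 fold change 2.12, SE 0.17, adjusted p = 0.000111 from limma). Of 10 classical heavy chain probe sets tested, 6 were called higher in this comparison, and their log2 fold changes ran from 0.11 to 2.12. The suffix _x_at marks probe sets in which some probes match other sequences too, and the heavy chain genes are near-identical copies in part, so which gene each of them reads is uncertain.

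The same held for other genes with several probe sets. H2-D1 probe set 1426324_at, with 487 and 391 in vitamin E-treated ApoE-/-, 531 and 503 in untreated ApoE-/-, and 241 and 233 in B6 aortas, had a log2 fold change of 1.12 in untreated ApoE-/- over B6 aortas. Tapbp had 2544 and 2586 in vitamin E-treated ApoE-/-, 2868 and 2576 in untreated ApoE-/-, and 2263 and 2093 in B6 aortas with its brighter probe set, and 254 and 295, 361 and 343, and 159 and 148 with its dimmer one. Both were called higher in untreated ApoE-/- aortas than in those of B6 mice, with log2 fold changes of 0.32 (SE 0.08) and 1.20 (SE 0.11). H2-Aa ranged from 0.09 for 1435290_x_at to 1.33 for 1443783_x_at, and that probe set had 544 and 338, 478 and 577, and 187 and 233 signal units in vitamin E-treated ApoE-/-, untreated ApoE-/- and B6 aortas. Direction was shared by all probe sets tested of H2-K1, H2-D1, Tapbp, H2-Aa, H2-Ab1 and H2-DMb2, while the size was not. It was not shared for B2m and H2-T-ps/H2-T23, of which no probe set was called. The second B2m probe set, 1452428_a_at, had 5812 and 6855, 5870 and 6323, and 6185 and 6054 in vitamin E-treated ApoE-/-, untreated ApoE-/- and B6 aortas. Its log2 fold change was -0.0064, beside 0.15 for the brighter one. H2-T-ps/H2-T23 had 0.58 for 1419658_at and -0.0040 for 1449556_at.

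**Figure D3:**
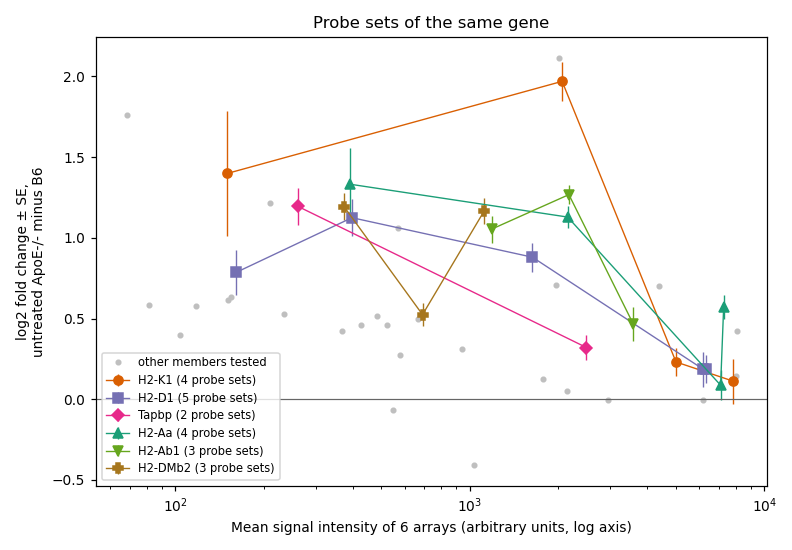
Log2 fold change of untreated ApoE-/- minus B6 aortas (bars, SE from limma) against the mean signal intensity of the 6 arrays (log axis, arbitrary units), with lines joining probe sets of the same gene and grey points for the other members tested. The brightest probe sets of H2-K1, H2-D1 and Tapbp have small fold changes of 0.11, 0.19 and 0.32, and dimmer ones of these genes reach 1.97, 1.12 and 1.20.

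Peptide transport and loading genes of class I rose moderately. Tap1 had 778 and 793 in vitamin E-treated ApoE-/-, 721 and 704 in untreated ApoE-/-, and 495 and 515 in B6 aortas, and untreated ApoE-/- aortas were 1.41-fold above B6 aortas (log2 fold change 0.50, SE 0.07, adjusted p = 0.00107 from limma). Tap2 had 677 and 743 in vitamin E-treated ApoE-/-, 571 and 557 in untreated ApoE-/-, and 474 and 460 in B6 aortas, with a log2 fold change of 0.27 in untreated ApoE-/- over B6 aortas (SE 0.08, adjusted p = 0.0251 from limma). Nlrc5, the class I activator, had 394 and 373 in vitamin E-treated ApoE-/-, 425 and 403 in untreated ApoE-/-, and 297 and 320 in B6 aortas. Its log2 fold change in untreated ApoE-/- over B6 aortas was 0.42 (SE 0.09, adjusted p = 0.00726 from limma). The call of Tap1 held in all 6 fits that left out 1 array. Those of Tap2, Nlrc5 and Tapbp probe set 1421812_at were lost without replicate 1 of untreated ApoE-/- aortas, and also without either B6 array or replicate 2 of untreated ApoE-/- aortas for Tap2, replicate 1 of B6 aortas for Nlrc5 and replicate 2 of B6 aortas for Tapbp.

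Non-classical heavy chains of the Q, T and M regions were not uniform, with 5 of 10 probe sets called higher and 1 lower in untreated ApoE-/- aortas than in those of B6 mice. Over all probe sets tested, 21.7% were called higher and 19.1% lower. H2-Q10, which encodes a secreted class I molecule made in the liver, was the single class I probe set called lower. It had 771 and 836 in vitamin E-treated ApoE-/-, 970 and 1005 in untreated ApoE-/-, and 1345 and 1279 in B6 aortas, without overlap between any groups. Untreated ApoE-/- aortas were lower than B6 aortas (log2 fold change -0.41, SE 0.07, adjusted p = 0.0032 from limma). A list of 10 liver genes, written after these values had been seen, was called lower in 10 of 10 in the same comparison, and its summed signal intensity was 2242 and 2243 in vitamin E-treated ApoE-/-, 1193 and 1183 in untreated ApoE-/-, and 20278 and 20815 in B6 aortas. Albumin (Alb) alone had 379 and 485, 243 and 273, and 6097 and 6107 in those groups, and the part of liver RNA in the H2-Q10 signal was not tested.

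H2-Q2 showed the widest range of any member tested. It had 152 and 108 in vitamin E-treated ApoE-/-, 63.9 and 71.9 in untreated ApoE-/-, and 6.36 and 6.23 in B6 aortas. B6 arrays were below that floor, so untreated ApoE-/- aortas were at least 3.39-fold higher (adjusted p = 0.000931 from limma), and H2-Q2 passed the minimum of 100 only through vitamin E-treated ApoE-/- aortas. H2-Q9/H2-Q7, whose product is the Qa-2 antigen, had 2225 and 2284 in vitamin E-treated ApoE-/-, 2235 and 2282 in untreated ApoE-/-, and 1396 and 1375 in B6 aortas. This signal was 1.63-fold higher in untreated ApoE-/- aortas than in those of B6 mice (log2 fold change 0.70, SE 0.06, adjusted p = 0.00012 from limma). A probe set of H2-Q6, H2-Q8 and H2-Q4 had 332 and 192, 245 and 267, and 119 and 103 in vitamin E-treated ApoE-/-, untreated ApoE-/- and B6 aortas, and was called 2.32-fold higher in untreated ApoE-/- aortas than in those of B6 mice. H2-M3, which presents formylated peptides, had a log2 fold change of 0.52, and the brighter probe set of H2-T-ps/H2-T23 was not called, with 3030 and 3263, 2862 and 2829, and 2850 and 2857.

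Vitamin E-treated and untreated ApoE-/- aortas differed in few MHC probe sets. Of 27 class I probe sets, 2 were called higher and 1 lower, beside 8.52% higher and 6.99% lower among all probe sets tested. Of 20 class II probe sets, 1 was called higher and 0 lower with limma (4 higher and 0 lower at an unadjusted p under 0.05, and no call by the methods' t-test after Benjamini-Hochberg adjustment, which called 0 of all 17909 probe sets). Of the 24 class I probe sets with a mean of at least 100 in all 3 groups, 1 was called higher and 1 lower. Of the 18 such class II probe sets, 1 was called higher and 0 lower. The median log2 fold change was -0.022 in class I and 0.092 in class II, beside 0.0035 over all probe sets tested. The counts depended on single arrays, and so did the share called among all probe sets. Without replicate 1 of vitamin E-treated aortas, 9 class I and 5 class II probe sets were called, beside 19.5% of all. Without replicate 1 or replicate 2 of untreated ApoE-/- aortas no member was called, beside 4.79% and 4.51% of all (at an unadjusted p under 0.05, 4 of class I and 2 of class II without replicate 1, and 5 and 2 without replicate 2). Leaving out either B6 array removed the 3 class I calls as well, beside 9.10% and 9.43% of all (6 and 7 class I probe sets then had an unadjusted p under 0.05).

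**Figure D4:**
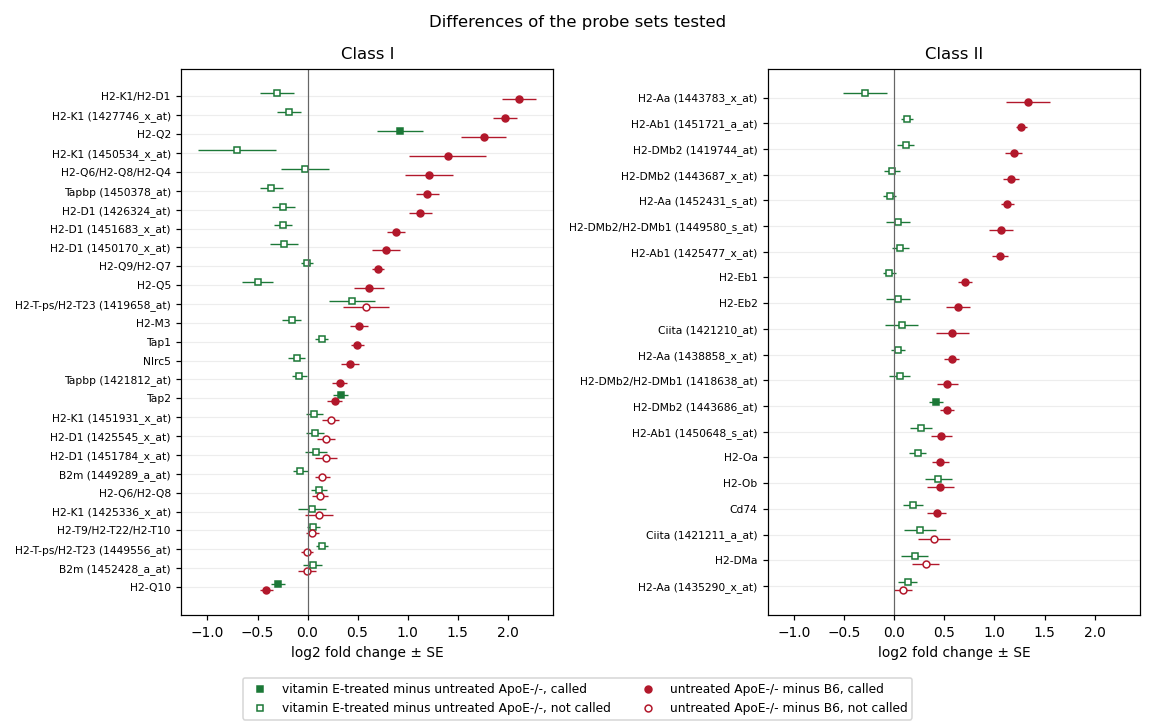
Log2 fold change (bars, SE from limma) of the class I and class II probe sets tested, for vitamin E-treated ApoE-/- aortas minus untreated ones (green squares) and untreated ApoE-/- minus B6 aortas (red circles), filled where called. Both differences use the arrays of untreated ApoE-/- aortas. Filled red circles run to 2.12, and filled green squares are limited to H2-Q2, Tap2, H2-Q10 and 1 probe set of H2-DMb2.

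The 4 calls were those of H2-Q2, Tap2, H2-Q10 and H2-DMb2. H2-Q2 was 1.90-fold higher in vitamin E-treated ApoE-/- aortas than in the untreated ones (log2 fold change 0.92, SE 0.23, adjusted p = 0.0348 from limma), and Tap2 1.26-fold (log2 fold change 0.33, SE 0.08, adjusted p = 0.0278 from limma). H2-Q10 was lower in vitamin E-treated ApoE-/- aortas than in the untreated ones (log2 fold change -0.30, SE 0.07, adjusted p = 0.0289 from limma). Of the 10 liver genes, listed after values were seen, 6 were called higher there, beside 8.52% of all probe sets tested. The part of liver RNA in the H2-Q10 difference was not tested. H2-DMb2 probe set 1443686_at had 878 and 948 in vitamin E-treated ApoE-/-, 675 and 692 in untreated ApoE-/-, and 482 and 468 in B6 aortas. This probe set was 1.34-fold higher in vitamin E-treated ApoE-/- aortas than in the untreated ones (log2 fold change 0.42, SE 0.07, adjusted p = 0.0098 from limma), while the brightest H2-DMb2 probe set was not called (log2 fold change -0.022, adjusted p = 0.887 from limma). All 4 calls were lost without either array of untreated ApoE-/- aortas, that of H2-Q2 also without replicate 1 of vitamin E-treated aortas or either B6 array, that of Tap2 without replicate 2 of vitamin E-treated aortas or either B6 array, and that of H2-Q10 without either B6 array.

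The remaining class I heavy chain values were mixed in this comparison. Of 10 classical heavy chain probe sets, 4 had a positive log2 fold change and none was called with limma. The brightest of H2-K1 and H2-D1 had log2 fold changes of 0.049 (SE 0.14) and 0.072 (SE 0.088), and the sign of both turned under median centring. H2-Q5, with 146 and 126 in vitamin E-treated ApoE-/-, 212 and 173 in untreated ApoE-/-, and 130 and 121 in B6 aortas, had a log2 fold change of -0.50 that missed the threshold (SE 0.15, adjusted p = 0.0688 from limma). It was called higher in untreated ApoE-/- against B6 aortas (log2 fold change 0.61), but not without replicate 1 of untreated ApoE-/- aortas or without either B6 array. The dimmer probe set of Tapbp missed it too (log2 fold change -0.36, SE 0.11, adjusted p = 0.0733 from limma). Among the class II chains, H2-Aa and H2-Eb1 had log2 fold changes of 0.035 (SE 0.074) and -0.051 (SE 0.068), Cd74 of 0.18 (SE 0.10) and H2-Ob of 0.44 (SE 0.14, adjusted p = 0.0701 from limma).

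Against B6 aortas, vitamin E-treated ApoE-/- aortas had nearly the same MHC calls in number as untreated ones, with the B6 arrays shared between these comparisons. In class I, 18 of 27 were called higher and 1 lower, with a median log2 fold change of 0.36. In class II, 19 of 20 were called higher and 0 lower (20 higher and 0 lower at an unadjusted p under 0.05 in limma, and no call by the methods' t-test after adjustment, which called 0.424% of all probe sets), with a median of 0.71. Of the 24 class I probe sets with a mean of at least 100 in all 3 groups, 16 were called higher and 1 lower. Of the 18 such class II probe sets, 17 were called higher and 0 lower. Among all probe sets tested, 21.9% were called higher and 19.2% lower, with a median of 0.020. Median centring of the arrays took the class I count to 12 and the class II count to 18. Of all probe sets tested, 43.6% were then called, beside 41.1% as deposited, and their median log2 fold change shifted to -0.13. The classical class II chains H2-Ab1 (probe set 1451721_a_at) and H2-Eb1 were 2.63-fold and 1.57-fold higher in vitamin E-treated ApoE-/- aortas than in those of B6 mice. H2-DMa, not called in untreated ApoE-/- aortas, was called here (log2 fold change 0.51, SE 0.13, adjusted p = 0.0188 from limma), and lost the call without replicate 2 of vitamin E-treated or of B6 aortas.

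The largest rises over B6 aortas in this comparison belonged to H2-Q2 (at least 6.42-fold), the H2-K1/H2-D1 probe set (3.50-fold), H2-K1 probe set 1427746_x_at (3.45-fold), H2-Ab1 probe set 1451721_a_at (2.63-fold), H2-DMb2 probe set 1419744_at (2.47-fold) and the H2-Q6/H2-Q8/H2-Q4 probe set (2.28-fold), each called with limma. H2-DMb2 probe set 1419744_at had 495 and 469 in vitamin E-treated ApoE-/-, 441 and 450 in untreated ApoE-/-, and 190 and 200 in B6 aortas. The call of the H2-Q6/H2-Q8/H2-Q4 probe set was lost without replicate 2 of B6 aortas. H2-Q10 was again the single fall (log2 fold change -0.71, SE 0.07, adjusted p = 0.000302 from limma). Of the 19 class I calls, 10 held in all 6 fits that left out 1 array, and of the 19 class II calls 15 did. Leaving out replicate 1 of B6 aortas lowered the number of class I calls, and the share called among all probe sets tested fell as well.

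Summed over the probe set with the highest mean of each symbol, class II signal intensity was 30510 and 33315 in vitamin E-treated ApoE-/-, 29125 and 29959 in untreated ApoE-/-, and 20411 and 19802 in B6 aortas. Class I sums were 39735 and 43360, 40455 and 42579, and 34691 and 34958 in those groups. In both classes all ApoE-/- arrays exceeded the B6 arrays, and the class I sums of vitamin E-treated and untreated ApoE-/- aortas overlapped. With 2 arrays against 2, an exact permutation test cannot go below p = 0.333, so the sums are given without a test.

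Markers of cells that carry MHC molecules differed between the same groups. The counts below stand beside 21.7% called higher and 19.1% lower among all probe sets tested in untreated ApoE-/- against B6 aortas. Of 8 B cell markers tested, 8 were called higher in untreated ApoE-/- aortas than in those of B6 mice, and their summed signal intensity over 9 genes was 8281 and 8743 in vitamin E-treated ApoE-/-, 7823 and 7586 in untreated ApoE-/-, and 4823 and 4796 in B6 aortas. The B cell receptor chain Cd79a had 1379 and 1514, 1328 and 1321, and 384 and 389 in those groups. Macrophage markers were called higher in 4 of 8 and summed to 11751 and 12369 in vitamin E-treated ApoE-/-, 12880 and 13083 in untreated ApoE-/-, and 9243 and 9258 in B6 aortas, and dendritic cell markers in 2 of 4, with sums of 1634 and 1598, 1593 and 1659, and 1090 and 1099. Of the dendritic cell list, Flt3, Zbtb46, Xcr1 and Cd209a were below the minimum of 100 in all groups. Thymic epithelium, which also carries class II molecules, was called higher in 8 of 10 and lower in 1, with sums of 10256 and 10840 in vitamin E-treated ApoE-/-, 7477 and 7396 in untreated ApoE-/-, and 4417 and 4313 in B6 aortas. Its defining markers Foxn1 and Aire were below 100 in all groups, and Psmb11 had 243 and 278, 134 and 93.6, and 0.637 and 1.55. Cathepsin L (Ctsl) is in this list and its sum, and also among the class II peptide supply genes below. It had 3332 and 3668 in vitamin E-treated ApoE-/-, 2997 and 3037 in untreated ApoE-/-, and 2444 and 2373 in B6 aortas. Cd83 is in this list and in that of dendritic cells, so these lists are not independent.

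T cell markers were called higher in 7 of 11 and summed to 7894 and 8027 in vitamin E-treated ApoE-/-, 5471 and 5526 in untreated ApoE-/-, and 2978 and 2819 in B6 aortas. Immature thymocyte markers were called higher in 6 of 7 and lower in 1, with sums of 8767 and 8420, 5106 and 5935, and 2589 and 2542 in those groups. Their median log2 fold change of untreated ApoE-/- over B6 aortas was 2.34 (from -0.65 to 6.62). For thymic epithelium markers this median was 1.46 (from -0.26 to 5.12). The medians were 0.69 for T cell, 0.72 for B cell, 0.17 for macrophage and 0.55 for dendritic cell markers, beside 0.029 over all probe sets tested. Between vitamin E-treated and untreated ApoE-/- aortas, 6 of 10 thymic epithelium and 5 of 11 T cell markers were called higher, while 0 of 8 B cell, 0 of 8 macrophage and 0 of 4 dendritic cell markers were called in either direction with limma. Immature thymocyte markers were called higher in 2 of 7, smooth muscle markers lower in 4 of 8 and endothelial markers lower in 2 of 8. The shares over all probe sets tested in this comparison were 8.52% higher and 6.99% lower. At an unadjusted p under 0.05 the B cell, macrophage and dendritic cell lists had 3 higher and 1 lower, 0 higher and 2 lower, and 1 higher. The labelled tissue was present in all groups, with Acta2, a smooth muscle actin, at 8791 and 9530 in vitamin E-treated ApoE-/-, 9158 and 9773 in untreated ApoE-/-, and 10846 and 11061 in B6 aortas. Smooth muscle markers summed to 17090 and 18032, 19129 and 19854, and 20254 and 20965, with 1 of 8 called higher in untreated ApoE-/- aortas than in those of B6 mice, and endothelial markers to 2209 and 2421, 2617 and 2664, and 2662 and 2609, with 2 of 8 called higher and 1 lower. Over all probe sets tested, the shares between untreated ApoE-/- and B6 aortas were 21.7% higher and 19.1% lower. The part of any of these cells in the MHC values was not tested.

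**Figure D5:**
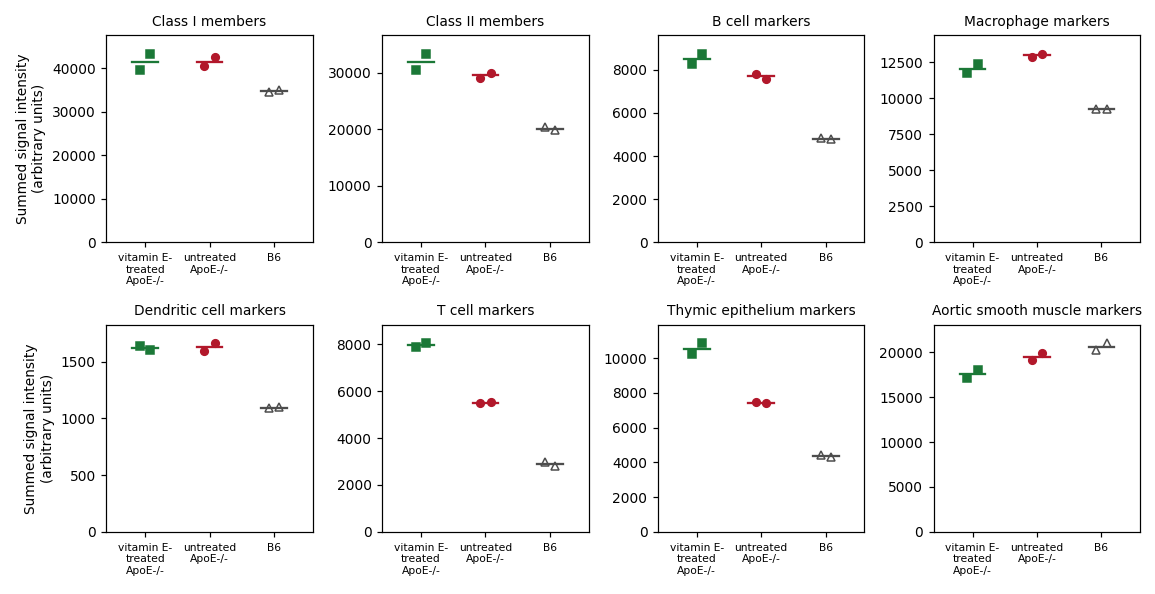
Summed signal intensity (arbitrary units, axes from 0) of class I and class II members and of marker lists, with 2 arrays per group as points and the mean as a line. Class I and II members and B cell, macrophage and dendritic cell markers have ApoE-/- points of both groups above the B6 points, T cell and thymic epithelium markers step down from vitamin E-treated over untreated ApoE-/- to B6 aortas, and smooth muscle markers are lowest in vitamin E-treated ApoE-/- aortas.

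Genes that supply the class I and class II pathways moved in part with them. Of 9 class I peptide supply genes tested, 5 were called higher in untreated ApoE-/- aortas than in those of B6 mice, with a median log2 fold change of 0.28. They were the immunoproteasome subunits Psmb8, Psmb9 and Psmb10, the proteasome activator Psme1 and the tapasin relative Tapbpl. The shares over all probe sets tested were 21.7% higher and 19.1% lower. Psmb9 had 1047 and 1165 in vitamin E-treated ApoE-/-, 1128 and 946 in untreated ApoE-/-, and 590 and 650 in B6 aortas. The chaperones Calr, Canx and Pdia3 and the trimming peptidase Erap1 were not called. None of the 9 was called between vitamin E-treated and untreated ApoE-/- aortas with limma, and 0 had an unadjusted p under 0.05.

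Class II peptide supply comprised 7 genes, of which 4 were called higher in untreated ApoE-/- aortas than in those of B6 mice. This count and that of MHC transcription below stand beside 21.7% higher and 19.1% lower among all probe sets tested. Cathepsin S (Ctss), which degrades the invariant chain, had 2900 and 2763 in vitamin E-treated ApoE-/-, 2978 and 2956 in untreated ApoE-/-, and 2092 and 2008 in B6 aortas. The others were cathepsin L (Ctsl), legumain (Lgmn) and the thiol reductase Ifi30, while Ctsb, Marchf1 and Marchf8 were not called. Lgmn had the largest difference, with 403 and 436 in vitamin E-treated ApoE-/-, 510 and 508 in untreated ApoE-/-, and 199 and 224 in B6 aortas. The list of MHC transcription held 15 tested genes, of which 8 were called higher in untreated ApoE-/- aortas than in those of B6 mice, namely Nfya, Nfyc, Irf1, Irf8, Ifngr1, Ifngr2, Jak1 and Spi1. The RFX subunits Rfx5, Rfxank and Rfxap were not called, with log2 fold changes of 0.083, 0.18 and -0.031. Between vitamin E-treated and untreated ApoE-/- aortas, 2 of the 15, Nfyb and Creb1, were called higher (log2 fold changes 0.46 and 0.33) and 0 lower. Among all probe sets tested, 8.52% were called higher and 6.99% lower there.

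Members that were not tested had signal intensities between 0.438 and 81.6. They included 3 further probe sets of Tap1, the highest of them at 6.92, and probe sets of H2-T3, H2-T18, H2-T24, H2-M9, H2-M10.1, H2-Bl and H2-D4. A probe set of H2-T9, H2-T22 and H2-T10 had 72.6 and 27.9 in vitamin E-treated ApoE-/-, 37.5 and 51.0 in untreated ApoE-/-, and 5.55 and 6.72 in B6 aortas, while the other probe set of these genes was not called, with 2134 and 2317, 2128 and 2146, and 2047 and 2085. H2-Ke6 had 566 and 466 in vitamin E-treated ApoE-/-, 553 and 556 in untreated ApoE-/-, and 607 and 554 in B6 aortas and was not called in any comparison (limma, log2 fold change of untreated ApoE-/- over B6 aortas -0.065).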

How the data were processed

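The deposited values are signal intensities, 1 per probe set and array, which the authors computed with GCOS and scaled on each array to a target value of 200. They are on a linear scale. Present calls and the arrays of captopril-treated mice were not used here, and coordinates are given only for RefSeq promoter windows, because the array annotation names no build. Of the 72 members, 70 matched a RefSeq gene by Entrez ID and 12 carry several symbols.

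A floor of 20 was set on the signal intensities before taking log2. Of probe sets other than the 64 controls, those averaging 100 or more in any group, 17909 in all, entered the test. Group means were compared in a linear model of the 6 arrays (limma 3.58.1, R 4.3.3), with variances shrunken towards a trend on intensity. P-values were adjusted over these probe sets (Benjamini-Hochberg), and calls are those with adjusted p under 0.05. Where both arrays of a group fell below the floor, the fold takes 20 in their place and is a bound. The procedure was tested on simulated data.

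The members and lists were chosen with earlier results of these data known. Named on every array are H2-K1, H2-D1, B2m, Tap1, Tap2, Tapbp, Nlrc5, H2-Aa, H2-Ab1, H2-Eb1, H2-DMa, H2-Oa, H2-Ob, Cd74 and Ciita, and in each comparison the calls with the 6 largest rises and 6 largest falls. A gene is given by its probe set with the highest mean, and others where call or direction differ. H2-Ea and H2-L are named as checks, and the liver list, Apoe, and further members shown as examples were chosen after values were seen. Alternatives were another normalization, floor, filter, moderation, set of arrays or probe sets, a replicate block, and the test and thresholds of the methods.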

Additional observations from a re-analysis of the deposited data

How the results depend on the processing

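Called probe sets in untreated ApoE-/- against B6 aortas numbered 17 in class I and 17 in class II. With 1 probe set per gene they were 11 of 17 tested in class I and 10 of 11 in class II. The methods' t-test after Benjamini-Hochberg adjustment gave 8 and 7, and the methods' thresholds in limma gave 7 and 7. Without a filter or without probe sets ending in _x_at and _s_at, class II counts were 11 of 25 and 10 of 12. Between vitamin E-treated and untreated ApoE-/- aortas, 3 class I and 1 class II probe sets were called. Class I had 1 call without a filter, 1 without the intensity trend, 1 with only the arrays compared, and 0 with the methods' t-test and thresholds. Class II had 0 without a filter, 0 with 1 probe set per gene, and 0 with the methods' t-test and thresholds. With an unadjusted p under 0.05, the t-test counts were 3 of class I and 2 of class II, and those of limma 6 and 4. In vitamin E-treated ApoE-/- aortas against those of B6 mice, 19 of 27 class I and 19 of 20 class II probe sets were called. Class I counts were 12 with median centring, 10 of 46 without a filter and 12 of 17 with 1 probe set per gene. They were 0 with the t-test and 5 with the thresholds. Class II counts were 12 of 25 without a filter and 11 of 11 with 1 probe set per gene. They were 12 of 12 without _x_at and _s_at probe sets, 0 with the t-test and 7 with the thresholds. The t-test gave 11 of class I and 14 of class II at an unadjusted p under 0.05. Among all probe sets, the t-test called 12.1% for untreated ApoE-/- over B6, 0% for vitamin E-treated over untreated and 0.424% for vitamin E-treated over B6 aortas. In the same order, the thresholds called 7.61, 2.18 and 6.41%, and the fit without a filter 9.98, 2.11 and 9.91%, so these counts fell across the array and not in MHC members alone. Fewer probe sets enter with 1 probe set per gene and without _x_at and _s_at probe sets. In the same order, 43.3, 17.1 and 44.3% of all were called with 1 probe set per gene. Without _x_at and _s_at probe sets the shares were 42.5, 17.3 and 42.8%. Median centring called 43.6% of all for vitamin E-treated over B6 aortas, beside 41.1% as deposited. For the other settings the cause was not tested.

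Leaving out 1 array gave 12 to 21 class I and 12 to 18 class II calls in untreated ApoE-/- against B6, 0 to 9 and 0 to 5 between vitamin E-treated and untreated ApoE-/-, and 12 to 22 and 16 to 20 in vitamin E-treated ApoE-/- aortas against those of B6 mice. The share called among all probe sets tested also varied over these fits in each comparison. It was highest in the fits with the most class I calls, so these ranges do not describe MHC members alone. Replicate numbers did not pair the arrays, since the correlations of replicate differences were 0.055, 0.054 and -0.098. With the replicate block, class I calls between vitamin E-treated and untreated ApoE-/- aortas fell to 1, and the other counts stayed within 1.5 times.

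Among the 15 genes named in every comparison, 13 log2 fold changes took the other sign under an alternative, and none of them had been called. Between vitamin E-treated and untreated ApoE-/- aortas, quantile normalization gave H2-K1 -0.037 and H2-Aa -0.052, and median centring H2-K1 -0.035, H2-D1 -0.012, H2-Aa -0.050 and Ciita -0.013. Leaving out 1 array gave -0.18 to 0.28 for H2-K1 (negative without replicate 2 of vitamin E-treated or replicate 1 of untreated aortas), -0.045 to 0.19 for H2-D1, -0.11 to 0.012 for H2-Eb1 and -0.081 to 0.22 for Ciita. In vitamin E-treated ApoE-/- aortas against those of B6 mice, H2-K1 was -0.066 to 0.39 over these fits, and B2m was -0.078 with median centring. Of the other values, 495 kept direction and side of the threshold, 60 lost the call and 17 gained one. Quantile normalization called H2-D1 (0.24) and B2m (0.28) higher in untreated ApoE-/- aortas than in those of B6 mice. Median centring shifted the median of all probe sets tested to -0.039 in untreated ApoE-/- against B6, -0.081 in vitamin E-treated against untreated and -0.13 in vitamin E-treated against B6 aortas. The share of higher among calls was then 43.2, 33.8 and 31.4%, against 53.1, 55.0 and 53.3% as deposited.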
